A study of Mus musculus with 6 samples.

Results

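The 10 genes described here are negative-feedback and early-response genes of mitogen-activated protein (MAP) kinase signaling, picked by symbol from the 17554 genes of the table: 5 dual-specificity phosphatases (*Dusp1*, *Dusp4*, *Dusp5*, *Dusp6* and *Dusp10*), 3 Sprouty genes (*Spry1*, *Spry2* and *Spry4*), and the immediate early genes *Egr1* and *Ier3*. All 10 were in the table, and all 10 were among the 12667 genes that passed a filter on low counts. *Dusp4* passed it through the mutant samples alone. Their transcripts were measured by bulk RNA-seq in the corneal epithelium of 3 control mouse samples and 3 *Krt14-Cre; Rela f/f* samples, all on the C57BL/6 strain and 2 months old. The labels give the controls as WT and the mutants as *Rela*-/-, and the methods describe the samples of a genotype as independent biological samples without saying how many mice each holds. *Rela* codes for RelA, a subunit of the transcription factor NF-κB. The Cre recombinase cuts out its floxed part in cells that have used the *Krt14* promoter, which is active in basal cells of stratified epithelia in general and not only of the cornea. Cells that have not used that promoter, and do not descend from cells that have, keep the gene.

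Growth factor receptors on epithelial cells pass their signal through Ras, Raf and MEK to the MAP kinase ERK, while stress and inflammatory signals reach the MAP kinases JNK and p38. Active ERK switches on immediate early genes within minutes, and also genes whose products switch the pathway off again. The dual-specificity phosphatases remove the activating phosphates from MAP kinases, and the Sprouty proteins act further up, between the receptor and Raf. In the cornea, receptors of the epidermal growth factor family drive this pathway and are best known for their part in epithelial renewal and wound closure.

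*Rela* was examined first, as a check of the genotype labels. Its FPKM (fragments per kilobase of transcript scaled to the depth of the sample, a level per transcript length) was 36.5, 34.7 and 33.4 in controls, against 4.93, 5.53 and 5.72 in mutants. The log2 fold change was -2.75 (SE 0.085, adjusted p = 5.5e-07 by edgeR's quasi-likelihood test), and the labels fit the targeted gene. Expected counts, in which a read matching more than 1 gene is split between those genes, summed to between 19492942 and 19733834 per sample, so all genes were measured at nearly the same depth.

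The epithelial identity of the samples was checked against marker lists. *Krt12*, the keratin of differentiated corneal epithelium, had an FPKM of 18871 to 21194 in controls and 17005 to 19245 in mutants. Of the 8 corneal epithelial markers, *Krt14*, a basal cell keratin, was higher in mutants, with 150 to 203 FPKM in control and 1474 to 2204 in mutant samples, and *Aldh3a1* was lower. The summed FPKM of 7 stromal markers was 2.31 to 2.64 in controls and 1.87 to 4.74 in mutants, and that of 6 immune markers was 85.2 to 91.8 and 79.9 to 125. *Itgam* made up most of the immune sum, with 63.85 to 67.15 FPKM in control and 50.97 to 94.77 FPKM in mutant samples. *Cd68* followed with 17.31 to 21.84 and 22.11 to 24.54 FPKM, and neither gene passed an adjusted p of 0.05 in edgeR. *Pdgfra*, a receptor of mesenchymal cells, made up most of the stromal sum in controls and was lower in mutants, with 2.07 to 2.5 FPKM in control and 1.17 to 1.48 FPKM in mutant samples (edgeR adjusted p = 0.0050). The other stromal marker with enough counts for a test, the proteoglycan gene *Dcn*, was higher in mutants, with 0.03 to 0.08 FPKM in control and 0.39 to 1.80 FPKM in mutant samples (edgeR adjusted p = 0.0051). *Col1a1* and *Vim* were too low to be tested, at no more than 0.06 FPKM in control and 0.05 to 0.53 FPKM in mutant samples. *Kera*, the cornea-specific keratocyte proteoglycan, reached 0.07 FPKM at most and *Ptprc*, the pan-leukocyte gene CD45, 0.15 FPKM. Sums of endothelial markers were 0.03 to 0.12 and 0.16 to 0.25 FPKM, of conjunctival markers 1394 to 1618 and 1096 to 1217 FPKM, of epidermal markers 5.94 to 6.77 and 4.99 to 6.31 FPKM, and of melanocyte markers 4.29 to 4.97 and 4.65 to 5.18 FPKM, with *Cdh5*, *Kdr*, *Prox1*, *Muc5ac* and *Flg* below 0.05 FPKM in all 6 samples. *Krt13* made up most of the conjunctival sum, with 1191 to 1404 FPKM in control and 939 to 1061 FPKM in mutant samples. It was the 1 conjunctival marker of 4 tested that passed, as lower in mutants (adjusted p = 0.015 in edgeR).

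The 10 genes spanned a wide range of levels. In the control samples *Ier3* had the highest mean FPKM (70.4), followed by *Dusp5* (52.2), *Spry1* (38.5), *Dusp1* (24.5), *Dusp6* (16.9), *Egr1* (11.8), *Spry2* (10.7), *Dusp10* (1.58), *Spry4* (0.15) and *Dusp4* (0.0067). *Egr1* and *Spry2* were the only neighbours in that order whose 3 samples overlapped. In the mutant samples *Ier3* again stood clear at the top (131) and *Spry2*, *Dusp10*, *Dusp4* and *Spry4* at the bottom (9.18, 3.29, 0.363 and 0.213). The 5 genes between them, *Dusp5* (54.4), *Dusp1* (39.2), *Spry1* (33.9), *Egr1* (33.6) and *Dusp6* (19.2), each overlapped with the next in that order. All *Dusp5*, *Dusp1* and *Spry1* values nevertheless lay above all *Dusp6* values, and all *Dusp5* values above all *Spry1* values.

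**Figure D1:**
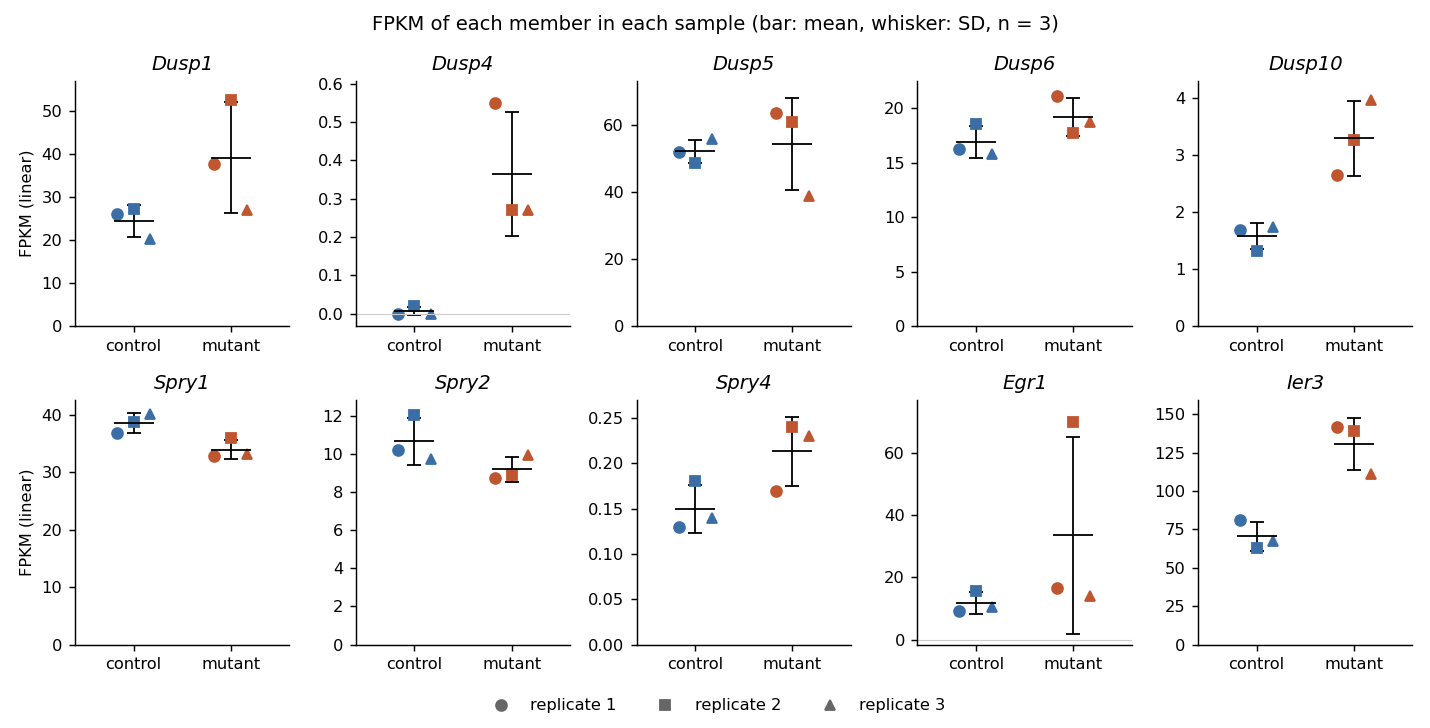
FPKM (linear vertical axes, 1 panel per gene, each with its own scale) of the 10 genes in the 3 control samples (blue) and the 3 mutant samples (orange). Marker shape gives the replicate number, the bar the mean and the whisker the SD; the 2 groups of points are apart for *Dusp4*, *Dusp10*, *Spry1* and *Ier3*, and mutant 2 stands alone for *Egr1*.

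Set side by side by genotype, 3 of the 10 genes changed at an adjusted p under 0.05 in edgeR's quasi-likelihood test, and all 3 rose in mutants: *Ier3*, *Dusp10* and *Dusp4*. Over all 12667 genes tested, 13.2% passed this threshold, 7.82% as higher and 5.42% as lower in mutants. *Dusp4* was tested only because of its counts in mutants, so that its direction was set by the filter. Where at least 10 counts were asked of every sample, *Dusp4* was not tested and 2 of the genes passed. The share over all genes was not counted under that filter. None of the 10 passed the stricter thresholds that the study's methods set (adjusted p no higher than 0.001, fold change no lower than 2) in edgeR or in limma, where 1.37% of all genes did so in edgeR; DESeq2 called *Dusp4* and *Dusp10* at these thresholds, against 2.61% of all genes. At an unadjusted p under 0.05 in edgeR the count was 6 of 10, against 28.1% of all genes. The FPKM of the genotypes did not overlap for 4 of the 10 genes, 3 of them higher and 1 lower in mutants, while 32.6% of all genes did not overlap, 17.5% higher and 15.2% lower. The median log2 fold change was 0.58 over the 10 genes, *Dusp4* included, and -0.0028 over all genes tested. Leaving out mutant 3 raised the 3 calls to 5, with *Dusp1* and *Egr1* added, and the 4 genes without overlap became 8 without mutant 3 and 8 without control 2. The shares over all genes were not counted with a sample left out, and smaller groups stand apart more easily. The percentages above are therefore no measure for these counts. In bulk samples, a changed level per cell and a changed share of cells that express a gene cannot be told apart. This holds for each difference given here, in either direction.

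**Figure D2:**
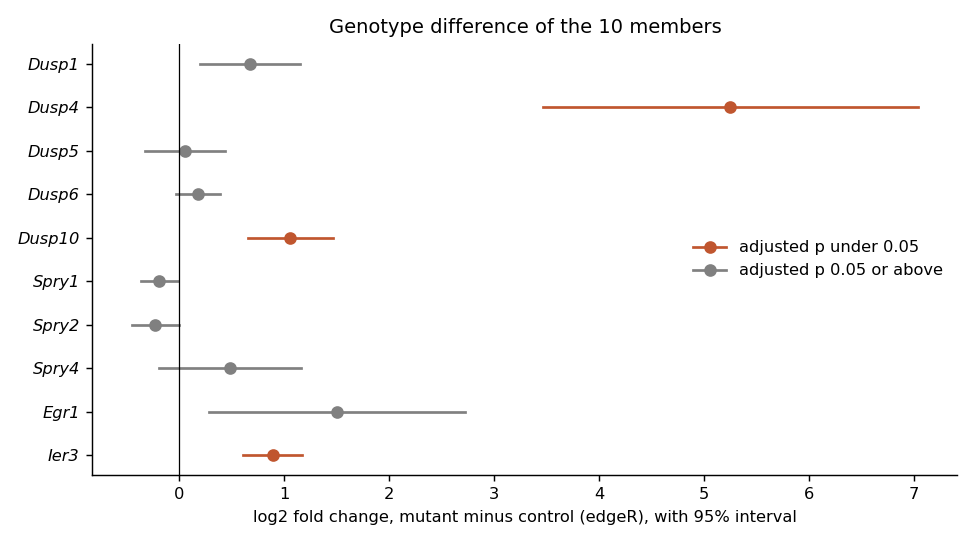
Log2 fold change of the 10 genes (horizontal axis, mutant minus control, from edgeR on counts), with its 95% confidence interval as a line. Orange marks an adjusted p under 0.05 over all genes tested; *Dusp4*, *Dusp10* and *Ier3* lie to the right of 0, and the width of the *Dusp4* interval goes with its single control count.

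*Ier3* (gene 15937, chr17:35821713-35823081 of GRCm38) is an immediate early gene, known as a target of NF-κB and a modulator of ERK activity and cell survival. Its FPKM was 81.1, 62.6 and 67.5 in controls and 142, 139 and 111 in mutants. Each mutant sample exceeded each control sample, and mutant 3 was the lowest of its group. Mean FPKM was 70.4 ± 9.57 (SD, n = 3) in control and 131 ± 17 (SD, n = 3) in mutant samples, a 1.85-fold rise (log2 fold change 0.89, SE 0.12, adjusted p = 0.0017 in edgeR). The exact two-sided permutation test gave p = 0.1, the smallest value that 3 samples against 3 allow, and it did so too for *Dusp10*, *Dusp4* and *Spry1*.

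*Dusp10* (gene 63953, chr1:184034461-184075636) encodes MKP-5, a phosphatase with a preference for JNK and p38 over ERK. Its FPKM was 1.69, 1.32 and 1.74 in controls and 2.65, 3.27 and 3.96 in mutants, from expected counts of 68 to 89 and 138 to 206. The groups were apart, and mutant 3, the lowest mutant sample for *Ier3*, was here the highest. The log2 fold change was 1.06 (SE 0.18, 95% interval 0.66 to 1.46, adjusted p = 0.0045 in edgeR).

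*Dusp4* (gene 319520, chr8:34804335-34822660) encodes MKP-2, a nuclear phosphatase that ERK induces and that acts on ERK and JNK. It was close to undetected in controls, with expected counts of 0, 1 and 0, and had 26, 13 and 13 counts in mutants (FPKM 0.55, 0.27 and 0.27). The counts pooled over the samples of each genotype were 52 against 1, a ratio of 51.9 with an exact 95% interval of 8.91 to 2089. That interval is for counting error alone and leaves out the variation between samples. PCR copies of a molecule were counted too. The adjusted p was 0.0026 in edgeR, in a test that the gene reached only through its counts in mutants. *Dusp4* was also the least abundant of the 3 genes in mutants, and its highest sample was mutant 1. That sample also held the highest value of 4 of 7 stromal markers (*Dcn*, *Lum*, *Col1a2* and *Vim*) and of 4 of 6 immune markers (*Lyz2*, *Cd68*, *Itgam* and *Ptprc*), whereas *Pdgfra* was lower there (1.42 FPKM) than in any control sample and the T cell gene *Cd3e* was at 0. The part of cells other than epithelium in the *Dusp4* counts was not tested.

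*Dusp1* (gene 19252, chr17:26505591-26511395) encodes MKP-1, an immediate early nuclear phosphatase that acts on p38, JNK and ERK. Its FPKM was 26.1, 27.2 and 20.3 in controls and 37.8, 52.7 and 27.0 in mutants. Mutants 1 and 2 lay above all control samples and mutant 3 just below the highest of them. The mean FPKM was 24.5 ± 3.72 (SD, n = 3) in control and 39.2 ± 12.9 (SD, n = 3) in mutant samples. Its log2 fold change of 0.68 (SE 0.21, adjusted p = 0.067 in edgeR) missed the threshold. Without mutant 3 the log2 fold change was 0.89 (adjusted p = 0.0062 in edgeR), and without mutant 2 it was 0.40 (adjusted p = 0.181).

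*Dusp5* (gene 240672, chr19:53527857-53542339) encodes a nuclear phosphatase specific for ERK and was the most abundant of the 5 phosphatases in control samples. Its FPKM was 52.0, 48.8 and 55.7 in controls and 63.7, 61.0 and 38.7 in mutants. Mutants 1 and 2 were above all control samples and mutant 3 was below all of them, so that no common direction was seen. The log2 fold change was 0.06, with a 95% interval of -0.32 to 0.44 (adjusted p = 0.857 in edgeR), and it was -0.073 without mutant 1 and -0.033 without mutant 2. In GENCODE, 22.1% of its exon bases overlap a gene on the opposite strand, and reads of both cannot be told apart where the strand was not used.

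*Dusp6* (gene 67603, chr10:99263231-99267489) encodes MKP-3, the cytoplasmic phosphatase specific for ERK and a widely used readout of ERK activity. Its FPKM was 16.3, 18.5 and 15.8 in controls and 21.1, 17.7 and 18.8 in mutants. The groups overlapped, and the log2 fold change of 0.19 had a 95% interval of -0.02 to 0.39 (adjusted p = 0.229 in edgeR), so that a change of 1.5-fold or more lay outside the interval. Summed over the 5 phosphatases, the FPKM was 96.1, 95.8 and 93.5 in controls and 126, 135 and 88.7 in mutants. The mutant samples spread more widely around their mean (116 ± 24.5, SD, n = 3) than the control samples did (95.1 ± 1.41, SD, n = 3), and the exact two-sided permutation test gave p = 0.4.

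None of the 3 Sprouty genes passed an adjusted p of 0.05 in edgeR, and 1 of them had an unadjusted p under 0.05. *Spry1* (gene 24063, chr3:37638579-37647952), the most abundant of the 3, had an FPKM of 36.7, 38.7 and 40.1 in controls and 32.7, 35.9 and 33.2 in mutants. All mutant samples lay below all control samples, but by little: the log2 fold change was -0.19 (SE 0.078, 95% interval -0.36 to -0.01), with an unadjusted p of 0.038 and an adjusted p of 0.151 in edgeR. In GENCODE, 24.4% of the *Spry1* exon bases overlap a gene on the opposite strand.

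*Spry2* (gene 24064, chr14:105890334-105896819) had an FPKM of 10.2, 12.1 and 9.71 in controls and 8.73, 8.89 and 9.92 in mutants, where mutant 3 fell within the control range. Its log2 fold change was -0.22 (SE 0.10, adjusted p = 0.181 in edgeR). *Spry4* (gene 24066, chr18:38586265-38601268) was low in all samples, at 0.13 to 0.18 FPKM in control and 0.17 to 0.24 FPKM in mutant samples, from 12 to 22 counts per sample, and its log2 fold change of 0.49 had an interval from -0.19 to 1.17 (adjusted p = 0.328 in edgeR). The summed FPKM of the 3 Sprouty genes was 49.3 ± 2.01 (SD, n = 3) in control and 43.3 ± 1.69 (SD, n = 3) in mutant samples, and every mutant sum, from 41.6 to 45.0, was below every control sum, from 47.1 to 50.9 (exact two-sided permutation p = 0.1, the smallest possible). *Spry1* made up most of these sums, so that their separation largely repeats that of *Spry1*. Sums of other genes were not formed to give a share beside it.

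*Egr1* (gene 13653, chr18:34861207-34864956), a zinc-finger transcription factor that ERK induces within minutes, rested on 1 sample. Its FPKM was 9.28, 15.8 and 10.5 in controls and 16.5, 70.2 and 14.1 in mutants. Mutant 2 was 4.60 times the mean of the other mutant samples, and mutant 3 lay inside the control range. The log2 fold change was 1.51 (SE 0.54, adjusted p = 0.101 in edgeR) with all samples and 0.36 (adjusted p = 0.321) without mutant 2. Without mutant 1 or without mutant 3 it was 1.83 and 1.88 (adjusted p = 0.036 and 0.035 in edgeR), so that the call turned on which sample was left out.

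Other immediate early genes were also highest in mutant 2. This sample held the highest value of 8 of 14 tested immediate early genes outside the 10 (57.1%) and of 3 of the 10 genes themselves (*Egr1*, *Dusp1* and *Spry4*), against 10.5% of all genes tested. Mutant 1 held the highest value of 4 of the 10 genes (*Dusp4*, *Dusp5*, *Dusp6* and *Ier3*) and of 4 of the 14 (28.6%), against 21.3% of all genes tested. *Fos*, a partner in the AP-1 transcription factor, had an FPKM of 26.2, 33.1 and 34.2 in controls and 33.4, 53.6 and 25.8 in mutants, and *Fosb*, *Ier2* and *Zfp36* were likewise highest there (2.59, 67.1 and 162 FPKM). *Jun*, the other core AP-1 subunit, showed a different pattern, with an FPKM of 20.4, 19.8 and 17.8 in controls and 61.8, 55.7 and 46.8 in mutants. *Jun* rose in every mutant sample (2.83-fold, SE 0.11 on the log2 scale, adjusted p = 4.9e-05 in edgeR), and mutant 1 was its highest sample. For quantitative PCR, the methods describe corneas placed in an RNA stabilization reagent and later incubated in EDTA, a chelator, before the epithelium was parted. For sequencing they say only that the epithelial layer was separated. How long each sequenced tissue stood between dissection and RNA extraction is not given in the sources used here. The part of tissue handling in the level of these genes was not tested.

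**Figure D3:**
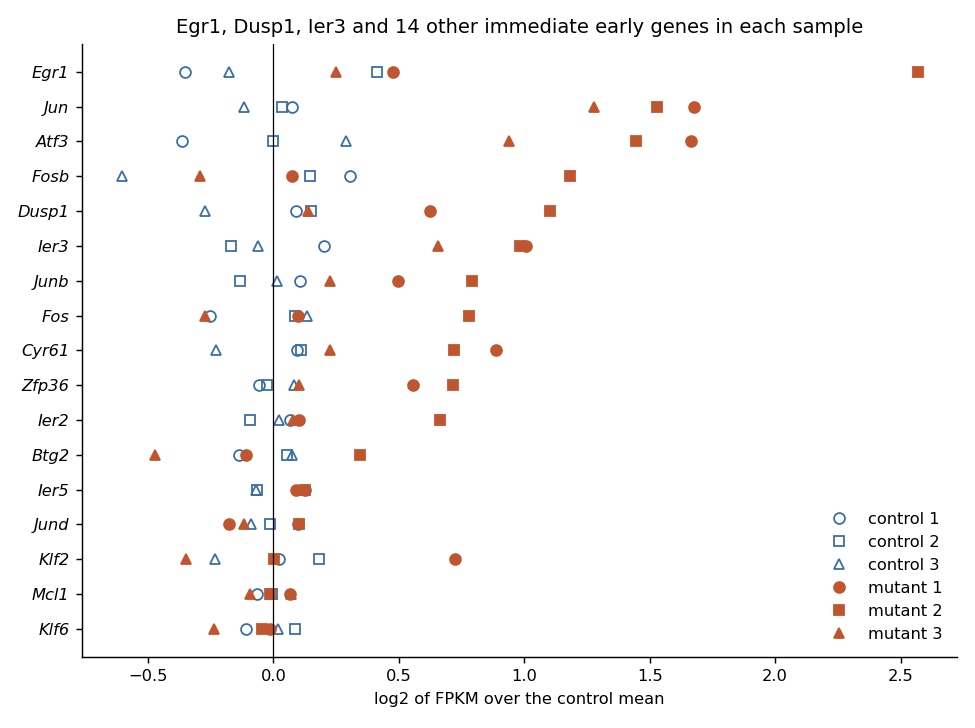
Log2 of the FPKM of each sample over the mean of the control samples (horizontal axis) for *Egr1*, *Dusp1*, *Ier3* and 14 other immediate early genes, with control samples as open blue and mutant samples as filled orange markers. Mutant 2 (orange square) lies far to the right for *Egr1* and leads for *Fosb*, *Fos* and *Ier2*, while all 3 mutant samples are to the right for *Jun*, *Atf3* and *Ier3*.

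**Figure D4:**
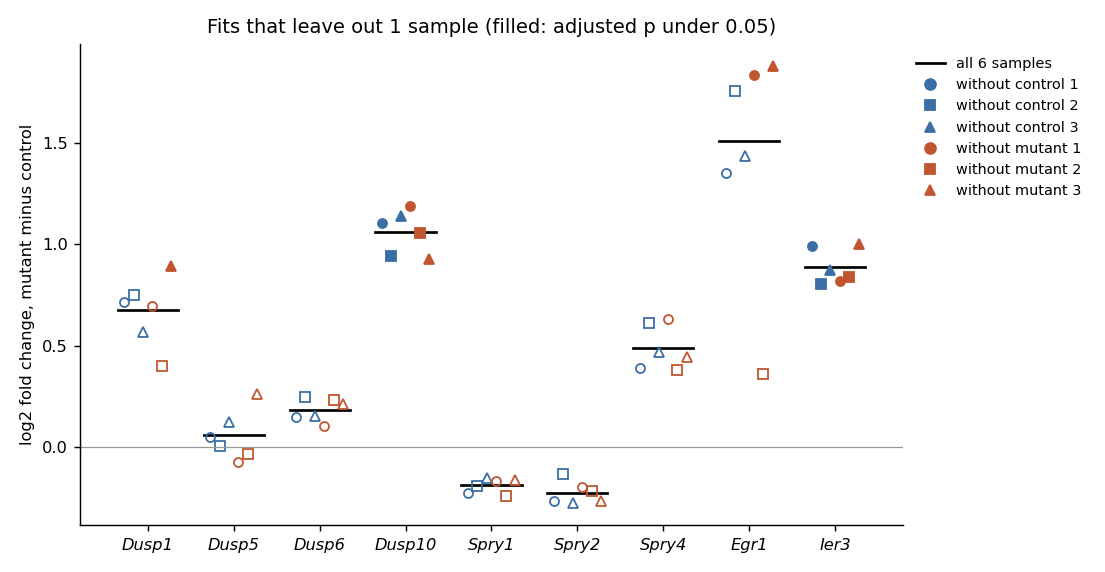
Log2 fold change (vertical axis, mutant minus control, edgeR) of 9 of the 10 genes when each of the 6 samples was left out, with the value from all 6 samples as a bar. *Dusp4* is not drawn, because its values of 4.79 to 7.12 lie beyond the axis; filled markers have an adjusted p under 0.05, which holds in all 6 fits for *Dusp10* and *Ier3* and in 1 and 2 fits for *Dusp1* and *Egr1*.

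The promoters of the genes were searched for binding motifs of the factors in question. RefSeq promoters of GRCm38.p6, each from 250 bases before to 50 bases after the start of transcription, were matched for 7 of the 10 genes (*Dusp1*, *Dusp5*, *Dusp6*, *Dusp10*, *Spry1*, *Spry2* and *Ier3*) and read on both strands. The motifs were the kappa B motif of NF-κB, the CArG box of serum response factor, the cAMP response element TGACGTCA and the AP-1 motif TGANTCA, and the matches found did not overlap each other. The kappa B motif was in the promoter of *Ier3* and in 8.46% of all 32851 promoters, the CArG box in that of *Dusp5* (1.63% of all promoters) and the cAMP response element in that of *Dusp1* (1.79%), while none of the 7 held the AP-1 motif (7.81%). The match in *Ier3* begins 92 bases before the start and reads as the motif on the strand opposite to the gene, that in *Dusp1* begins 143 bases before the start, and *Dusp5* holds a pair of CArG boxes end to end, from 82 and 72 bases before the start. The 3 sequences with a match are shown, together with that of *Dusp10*, which changed and has none, at chr17:35821463-35821762 (+ strand, *Ier3*), chr17:26508423-26508722 (- strand, *Dusp1*), chr19:53528895-53529194 (+ strand, *Dusp5*) and chr1:184034131-184034430 (+ strand, *Dusp10*). Capitals mark the matches, which are letters in a window and not shown to be bound.
Ier3: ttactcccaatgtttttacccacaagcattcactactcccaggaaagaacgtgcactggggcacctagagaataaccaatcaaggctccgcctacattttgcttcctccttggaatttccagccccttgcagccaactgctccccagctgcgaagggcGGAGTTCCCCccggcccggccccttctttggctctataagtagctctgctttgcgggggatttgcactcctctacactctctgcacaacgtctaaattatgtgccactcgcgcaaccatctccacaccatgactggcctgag
Dusp1: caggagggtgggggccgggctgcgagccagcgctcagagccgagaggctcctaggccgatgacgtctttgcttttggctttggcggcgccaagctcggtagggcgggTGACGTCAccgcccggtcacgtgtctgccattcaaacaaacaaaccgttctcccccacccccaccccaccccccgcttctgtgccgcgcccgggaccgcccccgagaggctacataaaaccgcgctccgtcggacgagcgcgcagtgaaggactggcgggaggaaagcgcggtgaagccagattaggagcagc
Dusp5: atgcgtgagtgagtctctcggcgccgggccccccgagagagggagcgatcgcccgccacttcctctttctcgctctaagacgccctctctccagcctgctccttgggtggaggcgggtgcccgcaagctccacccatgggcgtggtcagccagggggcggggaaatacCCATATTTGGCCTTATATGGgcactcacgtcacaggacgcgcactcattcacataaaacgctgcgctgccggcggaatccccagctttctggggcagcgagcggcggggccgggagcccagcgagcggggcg
Dusp10: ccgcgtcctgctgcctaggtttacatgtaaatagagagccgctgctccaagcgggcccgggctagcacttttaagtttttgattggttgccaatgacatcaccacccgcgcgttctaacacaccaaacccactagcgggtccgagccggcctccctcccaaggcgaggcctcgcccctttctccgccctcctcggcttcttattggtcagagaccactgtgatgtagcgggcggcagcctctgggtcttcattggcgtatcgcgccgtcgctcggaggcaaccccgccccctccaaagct

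Read against the genotype difference, the gene with the kappa B match (*Ier3*) rose in mutants, the gene with the CArG boxes (*Dusp5*) had no common direction, and the gene with the cAMP response element (*Dusp1*) missed the threshold. The deposited table lists *Dusp1* on the + strand, whereas RefSeq and GENCODE place it on the - strand, and the promoter is that of RefSeq.

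The rest of the pathway was described from 7 lists of 100 genes in all, of which 95 were tested. Of these, 16 rose and 4 fell at an adjusted p under 0.05 in edgeR, 21.1% of the tested list genes against 13.2% of all genes. For the 7 lists in the order below, the share was 25%, 20%, 3.85%, 12.5%, 40%, 28.6% and 40%. *Dusp8* and *Fosl1*, both counted among the 16, were tested only because of their counts in mutants. In each of the 6 fits with 1 sample left out, 9 of these 20 genes passed, namely *Dusp8*, *Errfi1*, *Fgfr3*, *Fosl1*, *Myc*, *Ets1*, *Jun*, *Hspa8* and *Hsp90aa1*, and the other 11 lost the call in 2 to 5 of the fits. The count of 20 became 13, 10, 10 and 11 without control 1, control 2, control 3 and mutant 2, where the share over all genes was not counted. Among 5 other MAP kinase phosphatases (4 tested, median log2 fold change 0.78), *Dusp8*, a phosphatase of JNK and p38, rose from 4 to 10 counts per control sample to 28 to 62 counts per mutant sample (log2 fold change 2.67, SE 0.45, adjusted p = 0.0047). Like *Dusp4*, it passed the filter on low counts through the mutant samples alone, and it has no value where at least 10 counts were asked of every sample. *Dusp7*, the most abundant of them, had a mean FPKM of 37.4 in control and 49.1 in mutant samples and missed the threshold (adjusted p = 0.104), as did *Dusp9* and *Dusp16* (adjusted p = 0.1 and 0.053). *Dusp9* had a log2 fold change of 1.16. *Dusp16* went the other way, at -0.33, with a mean FPKM of 17.4 in control and 13.8 in mutant samples.

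Of 11 other inhibitors of receptor tyrosine kinase signaling (10 tested, median -0.07), 2 rose and none fell. *Errfi1*, which encodes the epidermal growth factor receptor inhibitor MIG6, had an FPKM of 32.1, 32.1 and 30.1 in controls and 52.3, 44.3 and 39.8 in mutants (log2 fold change 0.53, SE 0.10, adjusted p = 0.0096 in edgeR). Each mutant sample was above each control sample. *Il17rd*, which encodes the fibroblast growth factor antagonist SEF, rose from a mean of 0.25 to 0.45 FPKM (adjusted p = 0.023 in edgeR), and the Sprouty-related genes *Spred1* and *Spred2* had log2 fold changes of -0.11 and -0.09.

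Of 26 genes of the cascade from the receptors to ERK, all tested, 1 rose and none fell (median log2 fold change -0.04): *Fgfr3*, a fibroblast growth factor receptor, had an FPKM of 15.7, 15.4 and 13.2 in controls and 32.3, 24.9 and 26.5 in mutants (log2 fold change 0.92, SE 0.11, adjusted p = 7.7e-04 in edgeR). In GENCODE transcripts, 11.6% of the 50-base windows of *Fgfr3* are shared with other genes. The receptor genes *Egfr* and *Erbb2* had log2 fold changes of -0.08 and -0.08. Of 16 genes of the JNK and p38 cascades (median -0.03), *Mapk12*, a p38 isoform, and *Map2k6*, a kinase that activates p38, had log2 fold changes of -0.52 and -0.54 and passed as lower (edgeR adjusted p = 0.021 and 0.040), and none rose.

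Of 15 transcripts that ERK is known to induce, or that encode factors it activates, 5 rose and 1 fell (median log2 fold change 0.30). That is 40%, against 13.2% of all genes tested and 40% of the heat shock genes described below. With 1 sample left out, 3 to 6 passed, where the share over all genes was not counted. *Fosl1*, an AP-1 subunit, had no count in any control sample and 28.1, 47.8 and 50.3 expected counts in mutants, at least 14-fold higher against a level of 3 counts per control sample (adjusted p = 5.3e-04 in edgeR), but 57.2% of its exon bases overlap *Ccdc85b*, and the division of reads between them is uncertain. *Fosl1* too passed the filter through the mutant samples alone. It lies near the targeted gene, at chr19:5447698-5455938, with *Rela* at chr19:5635891-5649631. The part of DNA linked to the targeted gene in the *Fosl1* difference was not tested. *Myc*, a growth-promoting transcription factor, rose from a mean FPKM of 12.6 ± 1.77 to 20.2 ± 1.94 (SD, n = 3; adjusted p = 0.0029 in edgeR), and *Ets1*, a factor that ERK phosphorylates, from 0.553 ± 0.119 to 1.32 ± 0.227 (SD, n = 3; adjusted p = 0.0039 in edgeR). *Ccnd1*, the cyclin that carries mitogen signals into the cell cycle, moved the other way, from 144, 130 and 113 FPKM in control to 67.6, 74.3 and 109 FPKM in mutant samples (log2 fold change -0.62, SE 0.16, adjusted p = 0.031 in edgeR); 23.4% of its exon bases overlap another gene. *Srf* and *Elk3*, which encode serum response factor and a partner of it, passed with log2 fold changes of 0.38 and 0.33 (adjusted p = 0.0315 and 0.0414 in edgeR). The *Etv4*, *Etv5* and *Phlda1* genes, which are read with *Dusp6* and the Sprouty genes as ERK output, had log2 fold changes of 0.34, 0.05 and 0.11 (adjusted p = 0.463, 0.866 and 0.7 in edgeR).

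Of 17 further immediate early genes, 14 were tested, 4 rose and none fell (median 0.29). Besides *Jun*, these were *Atf3*, a stress-induced factor (log2 fold change 1.36, adjusted p = 0.018), *Cyr61*, a matrix-associated growth regulator (0.64, adjusted p = 0.030), and *Junb*, an AP-1 subunit (0.52, adjusted p = 0.035, all in edgeR). Of 10 heat shock genes, which respond to stress and to tissue handling, 3 rose and 1 fell (median 0.19). *Hspa8*, *Hsp90aa1* and *Hsph1* had log2 fold changes of 0.58, 0.44 and 0.43, and that of *Hspa1b* was -0.41 (adjusted p = 0.0018, 0.0027, 0.026 and 0.038 in edgeR). Between 39.4% and 62.3% of the 50-base windows of *Hspa8*, *Hsp90aa1* and *Hspa1b* are shared with close copies, so that their values are uncertain. The part of these genes in the differences of *Ier3*, *Dusp10* and *Dusp4* was not tested.

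**Figure D5:**
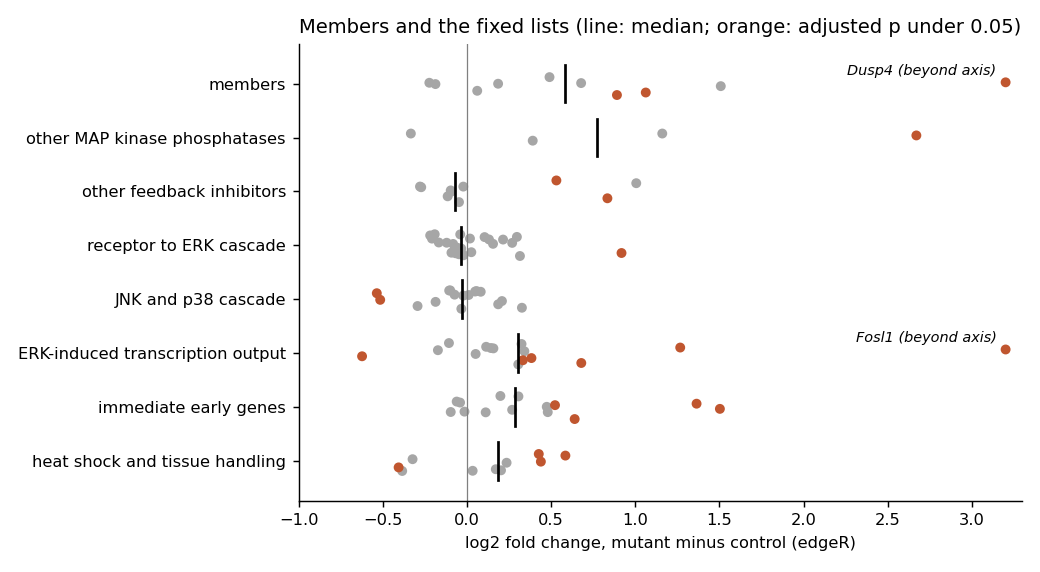
Log2 fold change (horizontal axis, mutant minus control, edgeR) of the 10 genes and of the tested genes of the 7 lists, 1 point per gene, with the median of each list as a black line. Orange points have an adjusted p under 0.05; *Dusp4* and *Fosl1* lie beyond the axis and are drawn at its edge, and the points of the receptor to ERK list crowd around 0 apart from *Fgfr3*.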

How the data were processed

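Corneal epithelial RNA of 3 control and 3 *Krt14-Cre; Rela f/f* samples was analysed from 1 deposited table of 17554 genes. The methods describe rRNA depletion and single-end 50-base reads on BGISEQ-500, whereas the labels name a TruSeq kit. Per the labels' processing notes, the authors used Bowtie2 2.2.5 and RSEM 1.2.12 and named mm9; the coordinates in the table are those of GRCm38. The authors deposited expected counts per sample, neither normalized nor pooled, of which 31.5% to 32.2% are not whole. They also deposited FPKM per sample, scaled by transcript length and sample total. Group means and the columns of the authors' own comparison (log2 fold change, p-values and q-values) were not used. Whether strand was used in counting is not given in the sources used here.

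Expected counts were rounded and fitted over all genes with edgeR 4.0.16 in R 4.3.3 (TMM scaling, filterByExpr with a minimum count of 10 and total of 15, quasi-likelihood test, genotype as the only term), with Benjamini-Hochberg adjustment over 12667 genes. Standard errors are the log2 fold change over the root of the F statistic. For FPKM, exact permutation tests, two-sided, were run per gene. Alternatives were DESeq2 1.42.0, limma 3.58.1 on log2(FPKM + 1) and log2(FPKM + 0.1), upper-quartile scaling, other filters, a replicate block and leaving out each sample. The scripts were tested on simulated data. The 10 genes, the lists and the tests were chosen with earlier results of these data known. From each list the text names up to 4 genes with the smallest adjusted p under 0.05; other list genes named were chosen after their values were seen. Shared 50-base windows and overlapping exon bases were counted in GENCODE transcripts of GRCm38, and promoters came from RefSeq. The results of some list genes are not reported here.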

Additional observations from a re-analysis of the deposited data

How the results depend on the processing

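*Dusp10* and *Ier3* kept their direction and an adjusted p under 0.05 in all 13 alternative fits, with log2 fold changes of 0.73 to 1.19 and 0.81 to 1.00, and *Dusp4* did so in each that gave it a value; it has none where at least 10 counts were asked of every sample. Past the strict thresholds, the 0 members in edgeR became 2 in DESeq2, 2 (*Dusp4* and *Dusp10*) at an adjusted p of at most 0.05 with the fold of 2, and 0 to 1 when 1 sample was left out (1, *Ier3*, without mutant 3). The 3 members with an adjusted p under 0.05 were 3 to 5 with 1 sample left out (5 without mutant 3, *Dusp1* and *Egr1* added). Leaving out 1 sample gave 4 to 8 members without overlap, with 8 without control 2 or without mutant 3, and 10 to 25 called genes of the lists in place of 20, with 13, 10, 10 and 11 without control 1, control 2, control 3 and mutant 2. For the fits with 1 sample left out, the shares over all genes were not counted. Nor were they for the adjusted p of at most 0.05 with the fold of 2. *Dusp5* lay between -0.073 and 0.26 with 1 sample left out, and was reversed without mutant 1 (-0.073) and without mutant 2 (-0.033). *Dusp1* also passed 0.05 with no filter (0.67, adjusted p = 0.044 in edgeR). Deviations of same-numbered samples had correlations of 0.019, 0.048 and -0.046, and those of differently numbered samples -0.077 to 0.064. With 3 samples a group, these values do not settle whether the replicate numbers pair the samples. With a replicate block 5 members passed, with *Dusp1* (0.64) and *Egr1* (1.15) added, against 11.2% of all genes tested. *Rela* stayed between -2.78 and -2.49. The median of all genes moved by less than 0.1 under every setting. With 3 samples a group and about 12 to 22 counts, the *Spry4* values leave a change anywhere within its interval possible. The size of change that could be detected was not computed, and the cause of the shifts was not tested.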
